A study of Homo sapiens with 4 samples.

Results

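The ephrins, Eph receptors, semaphorins, plexins, neuropilins, netrins, slits and ROBO receptors were examined in NCI-H1048, a human line of small cell lung cancer. Members were taken by gene symbol alone (EPHA, EPHB, EFNA, EFNB, SEMA3 to SEMA7, PLXN, NRP, ROBO, SLIT and numbered NTN genes), which gave 64 of the 35979 symbols in the tables. Poly(A) RNA had been sequenced in 4 libraries. Of these, 2 came from cells given COLCA2 gRNA, labelled as a COLCA2 knockout and numbered gRNA 1 and gRNA 2, which are taken here as different guides, 1 from cells given POU2F3 gRNA, labelled as a POU2F3 knockout, and 1 (the control below) from cells given a non-targeting gRNA, labelled WT. COLCA2 values are always in the order gRNA 1, gRNA 2. POU2F3 is the transcription factor that sets tuft cell identity, and COLCA2 is studied as its co-activator. The labels name no clone, time point or Cas9 construct, and nothing says that the libraries came from separate cultures.

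These families were named for steering growing axons, and they act in epithelia and tumours as well. Ephrins are membrane-bound ligands that signal through Eph receptor tyrosine kinases on the neighbouring cell. Ephrin-A ligands are held by a lipid anchor and ephrin-B ligands span the membrane, so that contact can signal into both cells. Semaphorins bind plexins, which act on small GTPases. Most of the secreted class 3 semaphorins need a neuropilin as co-receptor, and SEMA3E can bind PLXND1 without one. Slits bind ROBO receptors, and netrins bind DCC, neogenin and the UNC5 receptors. Eph and plexin signals act largely on the actin skeleton, cell contacts and movement.

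The recovered reads per library ranged from 21587741 to 29632382. Values are normalized counts per gene, and a gene was analysed further when its mean over the 4 libraries was at least 20, which 57 of the 64 members and 14940 symbols in all reached. Ratios to the control are log2(normalized count + 1) differences, which understate the change of low genes, and a gene is called here when the ratio reaches 2-fold. No test can separate conditions from libraries here, because the POU2F3 and control groups held 1 library each. The edgeR counts below lend the spread between the COLCA2 libraries to the single ones. Every ratio has the same single non-targeting library below it, so the values with the POU2F3 and COLCA2 guides are set side by side and are not independent. The intervals given with folds are 95% exact conditional (Clopper-Pearson) intervals and cover counting error only. For COLCA2 the SD between its 2 libraries is given as the error. Both ratios share the control, so this SD leaves out any variation of the control library. In bulk RNA, fewer cells of a type and less RNA per cell cannot be told apart.

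With the POU2F3 guide, 14 of the 57 members past the minimum reached 2-fold above the control (24.6%, against 6.73% of all genes past the minimum) and 5 were at least 2-fold lower (8.77%, against 3.05%). With both COLCA2 guides, 12 members were higher (21.1%, against 5.79%) and 4 were lower (7.02%, against 2.02%). The median log2 ratio over the 57 members was 0.18 for POU2F3 and 0.071 for the averaged COLCA2 pair, beside -0.0037 and -0.0086 for all genes past the minimum. The edgeR quasi-likelihood test on recovered reads (adjusted p under 0.05) called 16 members higher and 4 lower for POU2F3, against 8.45% and 3.98% of all genes, without EPHA5, EPHA7, PLXNA4, ROBO2 and SEMA6D of the 2-fold calls. For COLCA2 it called 15 higher and 10 lower, against 11.4% and 7.51%. Counting both directions, the POU2F3 guide gave 19 members past 2-fold (33.3%, against 9.77% of all genes). By the 2-fold rule 20 members were called under the POU2F3 guide or under both COLCA2 guides, a combined count given without a share of all genes. Of these, EPHA7, PLXNC1, EFNB2, SEMA6A and EPHB3 were lower and the other 15 were higher. The 37 members past the minimum that were not called had log2 ratios between -1.56 and 1.19. PLXNA4, ROBO2 and SEMA3A had under 20 in the control and passed the minimum through the targeted libraries, and EPHA7 passed it through the control, so these 4 had to differ.

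**Figure D1:**
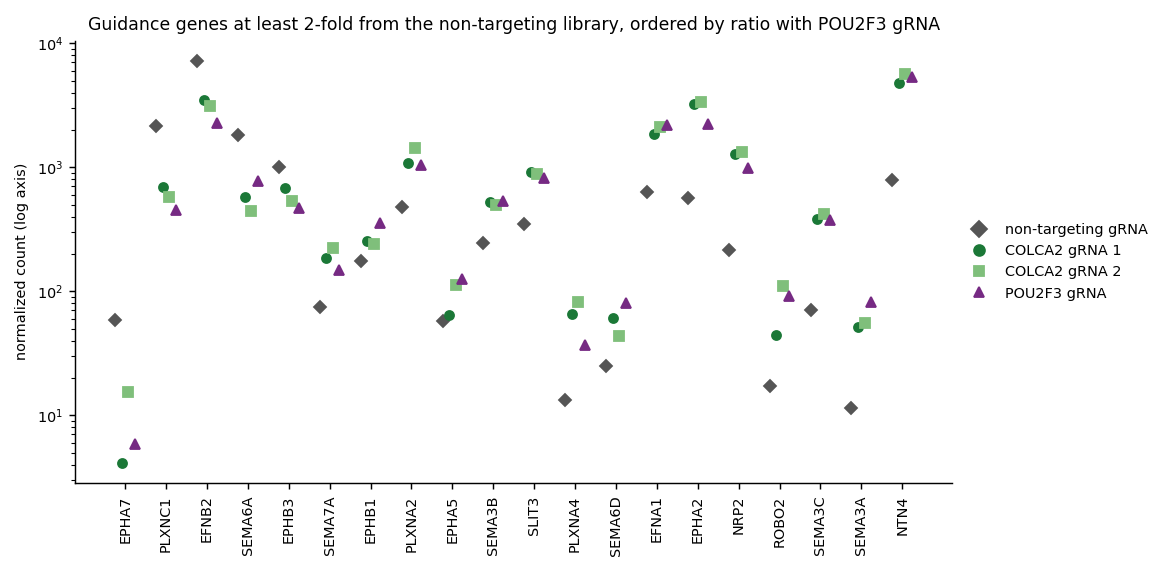
Normalized count on a log axis of each of the 20 called members in the 4 libraries, ordered from the lowest to the highest ratio under the POU2F3 guide. The non-targeting library (grey diamonds) lies above the 3 targeted libraries for the 5 genes on the left and below them for the 15 genes that follow.

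Promoter sequences are shown for EPHA2 and NTN4, which were high in the targeted libraries, for EFNB2 and PLXNC1, which were low, and for SEMA3F, the member whose window held the octamer letters ATGCAAAT bound by POU factors. They were picked after the values had been seen. Each is the 250 bases before a RefSeq start (GRCh38.p14), 5′ to 3′ on the gene's strand, with searched motifs in capitals.
EPHA2: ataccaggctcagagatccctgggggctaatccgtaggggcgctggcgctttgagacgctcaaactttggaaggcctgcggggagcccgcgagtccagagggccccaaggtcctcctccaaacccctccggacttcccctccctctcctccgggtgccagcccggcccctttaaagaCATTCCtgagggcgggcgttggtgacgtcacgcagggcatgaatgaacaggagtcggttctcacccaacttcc
NTN4: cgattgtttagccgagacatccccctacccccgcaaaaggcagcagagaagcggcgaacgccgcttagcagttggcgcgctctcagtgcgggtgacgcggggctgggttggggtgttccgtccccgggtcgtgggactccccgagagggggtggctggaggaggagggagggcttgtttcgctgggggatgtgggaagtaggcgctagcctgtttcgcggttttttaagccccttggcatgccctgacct
EFNB2: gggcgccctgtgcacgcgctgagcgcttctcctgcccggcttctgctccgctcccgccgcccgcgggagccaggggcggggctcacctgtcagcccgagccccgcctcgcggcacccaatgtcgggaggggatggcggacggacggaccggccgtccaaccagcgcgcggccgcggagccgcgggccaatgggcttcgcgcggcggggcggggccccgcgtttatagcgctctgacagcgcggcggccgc
PLXNC1: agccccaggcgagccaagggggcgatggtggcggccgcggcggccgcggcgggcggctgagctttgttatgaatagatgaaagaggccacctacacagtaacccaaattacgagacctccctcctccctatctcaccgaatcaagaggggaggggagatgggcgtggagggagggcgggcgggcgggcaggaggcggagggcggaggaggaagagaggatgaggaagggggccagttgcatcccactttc
SEMA3F: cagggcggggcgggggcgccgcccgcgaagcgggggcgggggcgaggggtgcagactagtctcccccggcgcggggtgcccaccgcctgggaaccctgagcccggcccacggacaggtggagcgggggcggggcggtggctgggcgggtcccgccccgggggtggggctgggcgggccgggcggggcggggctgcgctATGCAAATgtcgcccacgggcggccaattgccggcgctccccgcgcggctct
The windows are chr1:16156070-16156319, minus strand for EPHA2, chr12:95791156-95791405, minus strand for NTN4, chr13:106535663-106535912, minus strand for EFNB2, chr12:94148327-94148576, plus strand for PLXNC1 and chr3:50154808-50155057, plus strand for SEMA3F. The motifs were searched on both strands: the octamer ATGCAAAT, the TEAD core GGAATG and the AP-1 letters TGANTCA, none of which overlapped another in these windows. In the EPHA2 window the capitals mark the TEAD core, read as CATTCC on the strand shown, 73 bases before the start. In the SEMA3F window they mark the octamer, 52 bases before the start. The table held windows for 56 of the 64 members. The octamer was in 1 of their 88 windows, against 1.63% of all 35116 windows, the TEAD core in 7, against 11.9%, and the AP-1 letters in 1, a second PLXNC1 start, against 6.57%. A match is only a match of letters.

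Among the ephrin ligands, EFNA1 was higher and EFNB2 lower after targeting. EFNA1, an ephrin-A ligand that binds EPHA2 with high affinity (chromosome 1 at 155127460 to 155134857, plus strand, GRCh38), had a normalized count of 628 in the control, 1849 and 2126 under the COLCA2 guides and 2193 under the POU2F3 guide. All 3 targeted libraries were above the control, and EFNA1 was 3.49-fold higher (95% interval 3.20 to 3.81) under the POU2F3 guide, with a mean log2 value of 1.66 ± 0.14 for COLCA2 (SD, n = 2). EFNB2, the ephrin-B ligand best known from arterial vessels (chromosome 13 at 106489731 to 106535662, minus strand), had a normalized count of 7215 in the control, 3506 and 3127 under the COLCA2 guides and 2286 under the POU2F3 guide. It was the highest member per length in the control, at 1445 normalized counts per kb of longest transcript. EFNB2 was lower in every targeted library, 3.16-fold lower (95% interval 3.02 to 3.30) under the POU2F3 guide, and its mean log2 ratio under the COLCA2 guides was -1.12 ± 0.12 (SD, n = 2). EFNB1, a ligand whose loss causes a craniofacial syndrome, had 474 in the control, 615 and 559 under the COLCA2 guides and 781 under the POU2F3 guide, and EFNA5, a mapping cue of the visual system, had 479 in the control, 639 and 667 under the COLCA2 guides and 640.4 under the POU2F3 guide. Both were above the control in every targeted library. The other ephrins stayed within 2-fold: EFNA2, EFNA3, EFNA4, EFNA5, EFNB1 and EFNB3 had log2 ratios between -0.30 and 0.72.

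Among the Eph receptors EPHA2 had the highest ratios to the control. EPHA2, a receptor found in many epithelial tumours (chromosome 1 at 16124337 to 16156087, minus strand), had a normalized count of 563 in the control, 3252 and 3352 under the COLCA2 guides and 2251 under the POU2F3 guide. The targeted libraries were all well above the control, and both COLCA2 libraries were above the POU2F3 library. EPHA2 was 3.996-fold higher (95% interval 3.65 to 4.38) under the POU2F3 guide, 5.77-fold higher (95% interval 5.28 to 6.31) under COLCA2 guide 1 and 5.95-fold higher (95% interval 5.44 to 6.51) under COLCA2 guide 2. Its mean log2 ratio under the COLCA2 guides was 2.55 ± 0.0307 (SD, n = 2). EPHA7, which is known mainly from the developing nervous system (chromosome 6 at 93240020 to 93419547, minus strand), was a low gene at 61 reads in the control and 4, 13 and 7 under COLCA2 guide 1, COLCA2 guide 2 and the POU2F3 guide. It was 9.91-fold lower (95% interval 4.53 to 25.7) under the POU2F3 guide, an interval that is wide because of the few reads, and the COLCA2 guides themselves differed more than 2-fold (log2 ratios of -3.53 and -1.86).

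EPHA5, another receptor of neural tissue (chromosome 4 at 65319563 to 65670495, minus strand), was past 2-fold under the POU2F3 guide, from a low level: its normalized count was 57.3 in the control, 64.3 and 112 under the COLCA2 guides and 126 under the POU2F3 guide. COLCA2 guide 2 lay close to the POU2F3 library and COLCA2 guide 1 close to the control. EPHA4, a receptor that binds both ephrin classes, had 926 in the control, 930.0 and 1097 under the COLCA2 guides and 1778 under the POU2F3 guide, a log2 ratio of 0.94 under the POU2F3 guide. EPHA4 was thus near 2-fold for POU2F3 and near the control under COLCA2 guide 1. EPHA3, a receptor mutated in some lung cancers, led the EPHA genes per length in the control (179 normalized counts per kb) and had 1039 in the control, 618 and 649 under the COLCA2 guides and 942 under the POU2F3 guide, lower under the COLCA2 guides than in the other libraries. The remaining EPHA genes past the minimum, EPHA1 and EPHA10, and EPHA3 had log2 ratios between -0.75 and 0.16.

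The EPHB receptors differed among themselves. EPHB3, an ephrin-B receptor that positions cells in the intestinal crypt (chromosome 3 at 184561784 to 184582409, plus strand), had a normalized count of 1006 in the control, 684 and 537 under the COLCA2 guides and 473 under the POU2F3 guide. It was lower in every targeted library, 2.13-fold lower (95% interval 1.92 to 2.36) under the POU2F3 guide and short of 2-fold under the COLCA2 guides (mean log2 ratio -0.73 ± 0.25, SD, n = 2). EPHB1, a further ephrin-B receptor (chromosome 3 at 134597801 to 135260467, plus strand), had 175 in the control, 256 and 239.9 under the COLCA2 guides and 358 under the POU2F3 guide, and was higher in every targeted library. EPHB1 was 2.05-fold higher (95% interval 1.72 to 2.45) under the POU2F3 guide and stayed under 2-fold for COLCA2 (mean log2 ratio 0.50 ± 0.0663, SD, n = 2). EPHB2, a receptor of the crypt base, had 249 in the control, 389 and 359.9 under the COLCA2 guides and 446 under the POU2F3 guide. EPHB6, whose kinase is inactive, had 903 in the control, 1426 and 1464 under the COLCA2 guides and 1429 under the POU2F3 guide, as the sum of 2 rows of the same symbol. Both were higher in every targeted library without reaching 2-fold. The EPHB6 rows differed: ENSG00000106123, the ID matched to GENCODE, went from 61.1 to 275, 203 and 201, and ENSG00000275482 from 842 to 1151, 1261 and 1227, in the order control, COLCA2 guides, POU2F3 guide. The first was past 2-fold in every targeted library and the second in none, and how the counting split reads between them is uncertain. EPHB4, the partner of EFNB2 and the most abundant Eph receptor per length in the control (906 normalized counts per kb), stayed between -0.15 and 0.13 on the log2 scale.

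**Figure D2:**
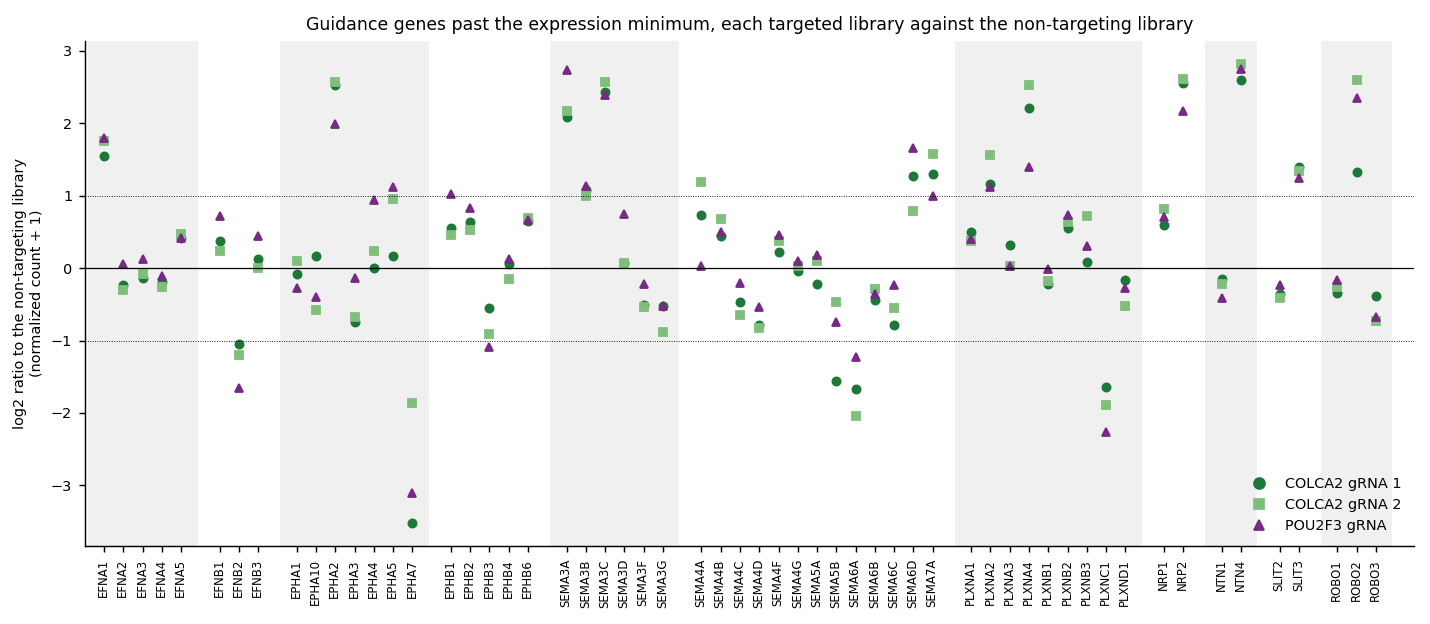
Log2 ratio to the control on the log2(normalized count + 1) scale of each of the 57 members past the minimum, grouped by family, for COLCA2 guide 1, COLCA2 guide 2 and the POU2F3 guide. Dotted lines mark 2-fold. EPHA2, NRP2, NTN4, SEMA3A and SEMA3C stand near or above 2 in all 3 libraries, and EPHA7, PLXNC1, EFNB2 and SEMA6A lie below -1 in all 3. SEMA3A and EPHA7 rest on few reads.

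Of the 6 secreted class 3 semaphorins past the minimum, SEMA3A, SEMA3B and SEMA3C were at least 2-fold higher under the POU2F3 guide and under both COLCA2 guides. Of all genes, 6.73% and 5.79% were called higher in these comparisons, and SEMA3A passed the minimum through the targeted libraries and so had to differ. SEMA3C, a ligand of both neuropilins (chromosome 7 at 80742538 to 80922359, minus strand), had a normalized count of 70.7 in the control, 386 and 423 under the COLCA2 guides and 374 under the POU2F3 guide. The 3 targeted libraries lay close together, and SEMA3C was 5.29-fold higher (95% interval 4.12 to 6.86) under the POU2F3 guide with a mean log2 ratio of 2.50 ± 0.0949 under the COLCA2 guides (SD, n = 2). SEMA3A, the classic repellent that binds NRP1 (chromosome 7 at 83955777 to 84492724, minus strand), was scarce: it had 12 reads in the control and 50, 47 and 98 under COLCA2 guide 1, COLCA2 guide 2 and the POU2F3 guide. SEMA3A was 7.18-fold higher (95% interval 3.93 to 14.4) under the POU2F3 guide, and its mean log2 ratio under the COLCA2 guides was 2.13 ± 0.0643 (SD, n = 2). SEMA3B, a semaphorin described as a tumour suppressor of lung cancer (chromosome 3 at 50267558 to 50277546, plus strand), had 245 in the control, 520.5 and 493 under the COLCA2 guides and 539 under the POU2F3 guide. COLCA2 guide 2 was just past 2-fold for SEMA3B (log2 ratio 1.003).

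SEMA3F, a ligand of NRP2, was the most abundant class 3 semaphorin per length in the control (167 normalized counts per kb) and was not called: it had 634 in the control, 444 and 437 under the COLCA2 guides and 542 under the POU2F3 guide. SEMA3F lay below the control level in every targeted library. SEMA3D and SEMA3G had log2 ratios between -0.88 and 0.75, and SEMA3E stayed under the minimum.

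All 13 membrane semaphorins of classes 4 to 7 passed the minimum. SEMA6A, a transmembrane ligand of PLXNA2 and PLXNA4 (chromosome 5 at 116443616 to 116574934, minus strand), was the one called lower, with a normalized count of 1827 in the control, 575 and 441 under the COLCA2 guides and 781 under the POU2F3 guide. It was lowest under the COLCA2 guides, at 3.17-fold lower (95% interval 2.89 to 3.50) and 4.14-fold lower (95% interval 3.71 to 4.64) under guides 1 and 2, and 2.34-fold lower (95% interval 2.16 to 2.53) under the POU2F3 guide. SEMA7A, the lipid-anchored semaphorin that binds PLXNC1 and integrins (chromosome 15 at 74409289 to 74433958, minus strand), had 74.5 in the control, 186 and 225 under the COLCA2 guides and 149 under the POU2F3 guide. It was past 2-fold under both COLCA2 guides (mean log2 ratio 1.44 ± 0.19, SD, n = 2), and under the POU2F3 guide its log2 ratio of 0.99 was just short. SEMA6D, a ligand of PLXNA1 (chromosome 15 at 47184101 to 47774223, plus strand), had 24.8 in the control, 61.2 and 43.5 under the COLCA2 guides and 80.6 under the POU2F3 guide, and was past 2-fold under the POU2F3 guide and COLCA2 guide 1 but not under guide 2. Outside these 3, SEMA4A reached 2-fold only under COLCA2 guide 2 (log2 ratio 1.19) and SEMA5B only under COLCA2 guide 1 (-1.56). SEMA4B, SEMA4C, SEMA4D, SEMA4F, SEMA4G, SEMA5A, SEMA6B and SEMA6C stayed between -0.83 and 0.68. Of these, SEMA4D, the ligand of PLXNB1, had 1145 in the control, 661 and 644 under the COLCA2 guides and 787 under the POU2F3 guide, lower in every targeted library. SEMA4C, the ligand of PLXNB2, had 1499 in the control, 1088 and 954 under the COLCA2 guides and 1304 under the POU2F3 guide, and SEMA6C, a class 6 transmembrane semaphorin, had 1209 in the control, 701 and 822 under the COLCA2 guides and 1029 under the POU2F3 guide. SEMA4C and SEMA6C were lower under the COLCA2 guides than under the POU2F3 guide. The edgeR test called SEMA4C, SEMA4D, SEMA6C and, among the class 3 genes, SEMA3F lower for COLCA2.

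Among the plexins, PLXNC1 was far lower after targeting. PLXNC1, the receptor of SEMA7A (chromosome 12 at 94148723 to 94307675, plus strand), had a normalized count of 2152 in the control, 689 and 579 under the COLCA2 guides and 449 under the POU2F3 guide. Every targeted library was far below the control, lowest under the POU2F3 guide, where PLXNC1 was 4.79-fold lower (95% interval 4.36 to 5.28). Its mean log2 ratio under the COLCA2 guides was -1.77 ± 0.18 (SD, n = 2). PLXNC1 was thus low in the same libraries in which its ligand SEMA7A was high. PLXNA2, a receptor for class 3 and class 6 semaphorins (chromosome 1 at 208022242 to 208244320, minus strand), had 480.3 in the control, 1074 and 1421 under the COLCA2 guides and 1042 under the POU2F3 guide, with a log2 ratio of 1.12 under the POU2F3 guide and a mean of 1.36 ± 0.29 under the COLCA2 guides (SD, n = 2). PLXNA4, a further receptor of SEMA3A and SEMA6A (chromosome 7 at 132123332 to 132648688, minus strand), had 14 reads in the control and 63, 70 and 44 under COLCA2 guide 1, COLCA2 guide 2 and the POU2F3 guide, and was 2.76-fold higher (95% interval 1.49 to 5.46) under the POU2F3 guide. Its mean log2 ratio under the COLCA2 guides was 2.37 ± 0.23 (SD, n = 2). PLXNB2, the most abundant plexin per length (786 normalized counts per kb in the control), had 5018 in the control, 7358 and 7820 under the COLCA2 guides and 8351 under the POU2F3 guide, higher in every targeted library and short of 2-fold. PLXND1, the receptor of SEMA3E, had 3634 in the control, 3243 and 2533 under the COLCA2 guides and 2998 under the POU2F3 guide, below the control in every targeted library. PLXNA1, PLXNA3, PLXNB1, PLXNB3 and PLXND1 ranged from -0.52 to 0.72.

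Both neuropilins were higher after targeting, NRP2 far more than NRP1. NRP2, the co-receptor of SEMA3F and SEMA3C that also binds VEGFC (chromosome 2 at 205681990 to 205798133, plus strand), had a normalized count of 216 in the control, 1270 and 1323 under the COLCA2 guides and 979 under the POU2F3 guide. It was 4.53-fold higher (95% interval 3.93 to 5.25) under the POU2F3 guide, 5.88-fold higher (95% interval 5.10 to 6.81) under COLCA2 guide 1 and 6.13-fold higher (95% interval 5.31 to 7.10) under COLCA2 guide 2. NRP1, the co-receptor of SEMA3A and VEGFA, had 1349 in the control, 2050 and 2369 under the COLCA2 guides and 2207 under the POU2F3 guide, and its log2 ratios of 0.60 to 0.81 stayed below 2-fold.

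NTN4, a laminin-like netrin of basement membranes (chromosome 12 at 95657807 to 95791152, minus strand), had one of the highest ratios of all members. Its normalized count was 794 in the control, 4819 and 5633 under the COLCA2 guides and 5353 under the POU2F3 guide. NTN4 was 6.74-fold higher (95% interval 6.27 to 7.25) under the POU2F3 guide, 6.07-fold higher (95% interval 5.63 to 6.54) under COLCA2 guide 1 and 7.09-fold higher (95% interval 6.59 to 7.64) under COLCA2 guide 2, so that the 3 targeted libraries differed little from one another. NTN1, the ligand of DCC and the UNC5 receptors, had 1938 in the control, 1750 and 1658 under the COLCA2 guides and 1462 under the POU2F3 guide and lay slightly below the control level throughout. NTN3 and NTN5 had at most 17 and 13 reads in a library and stayed under the minimum.

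Among the slits, SLIT3 (chromosome 5 at 168661733 to 169301129, minus strand) had a normalized count of 348 in the control, 914 and 887 under the COLCA2 guides and 822 under the POU2F3 guide. SLIT3, a secreted ROBO ligand, was 2.36-fold higher (95% interval 2.09 to 2.67) under the POU2F3 guide, and its mean log2 ratio under the COLCA2 guides was 1.37 ± 0.0313 (SD, n = 2). SLIT2 had 486 in the control, 378 and 365 under the COLCA2 guides and 413 under the POU2F3 guide, a little below the control level in each targeted library. SLIT1, with a mean of 17.9 against 20.9 for EPHA7 just inside the minimum, had 26 reads in the control, 6 and 1 under COLCA2 guides 1 and 2, and 47 under the POU2F3 guide. ROBO1, the main ROBO receptor per length in every library, had 5525 in the control, 4336 and 4607 under the COLCA2 guides and 4911 under the POU2F3 guide, with log2 ratios between -0.35 and -0.17. ROBO2, a receptor known from neural and kidney development (chromosome 3 at 75906695 to 77649964, plus strand), had 18 reads in the control and 43, 93 and 109 under COLCA2 guide 1, COLCA2 guide 2 and the POU2F3 guide. The COLCA2 guides differed by more than 2-fold at ROBO2 (mean log2 ratio 1.96 ± 0.90, SD, n = 2). ROBO3 lay between -0.73 and -0.38. ROBO4, EPHA6, EPHA8 and SEMA3E, the rest of the members under the minimum, had at most 20 reads in any library.

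Summed per length, the make-up of several families differed between the libraries. Levels between genes are normalized counts per kb of the longest protein-coding GENCODE transcript, which need not be the one expressed. Of the summed netrin level, NTN4 made up 39.3% in the control, 81.7% and 84.3% under the COLCA2 guides and 85.3% under the POU2F3 guide, with NTN1 taking nearly all of the rest. Of the EPHA receptors, EPHA2 made up 23.3% in the control, 68.2% and 66.2% under the COLCA2 guides and 50.3% under the POU2F3 guide, and the summed EPHA level was 609 per kb in the control and between 1129 and 1278 in the targeted ones. Of the ephrin-B level, EFNB2 held 78.7% in the control, 60.6% and 60.1% under the COLCA2 guides and 44.3% under the POU2F3 guide. Of the ephrin-A level, EFNA1 held 15.6% in the control, 37.6% and 41.5% under the COLCA2 guides and 38.6% under the POU2F3 guide. EFNB2 thus took less of its family in each targeted library and EFNA1 more. The leading class 3 semaphorin was SEMA3F in the control (55.5%) and SEMA3B in each targeted one (40.7% to 43.5%). Of the slit level, SLIT3 held 31.1% in the control, 61.1% and 61.5% under the COLCA2 guides and 54.9% under the POU2F3 guide, so that SLIT2 led in the control and SLIT3 in the targeted libraries. NRP1 stayed the leading neuropilin, while the share of NRP2 was 12.4% in the control, 35.4% and 33.0% under the COLCA2 guides and 28.1% under the POU2F3 guide. EPHB4, ROBO1, PLXNB2 and SEMA4C led their families in every library. The members together made up between 0.242% and 0.268% of the total normalized count in the 4 libraries.

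**Figure D3:**
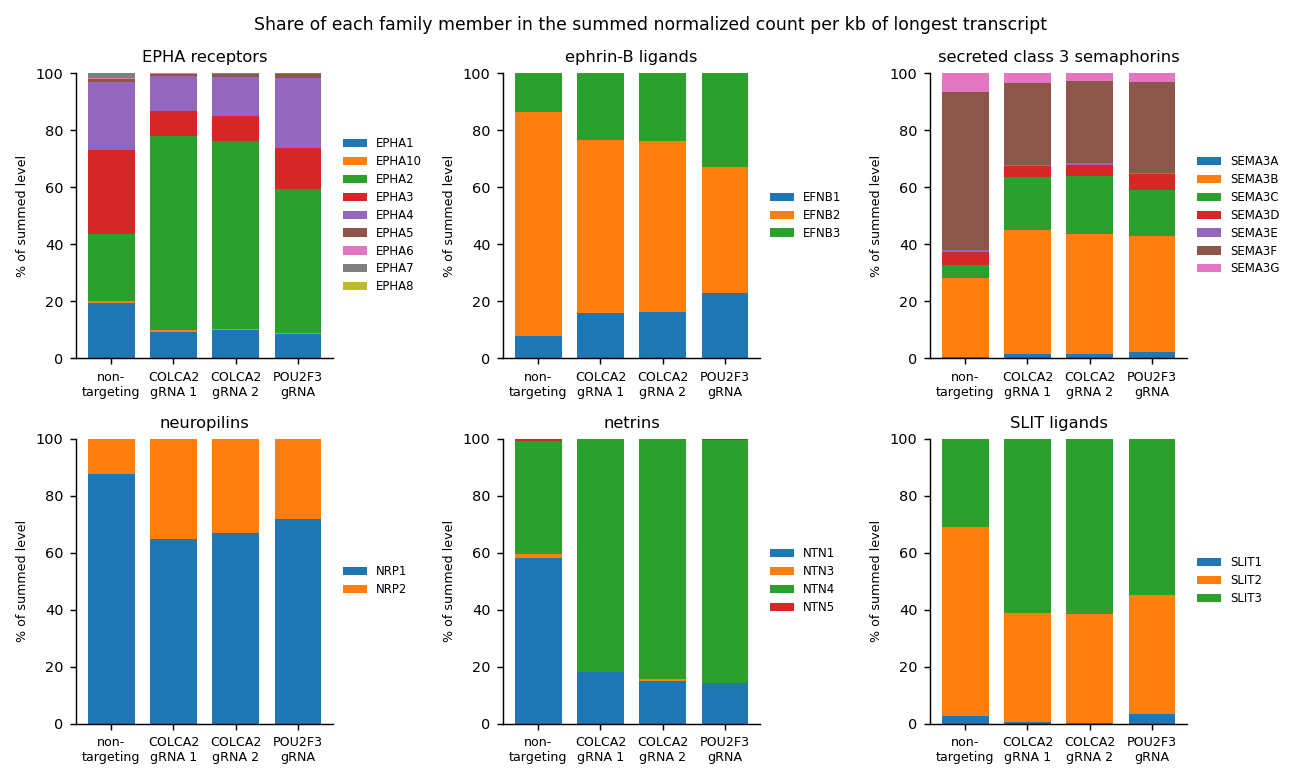
Share of each member in its family's summed normalized count per kb of longest transcript, as stacked percentages for 6 families in the 4 libraries. NTN4 widens from 39.3% to at least 81.7% of the netrins in the targeted libraries and EPHA2 from 23.3% to at least 50.3% of the EPHA receptors, while EFNB2 narrows from 78.7% of the ephrin-B ligands.

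The POU2F3 library and the COLCA2 libraries were also set directly against each other, without the control. Of the 57 members, 0 were at least 2-fold apart in the same direction from both COLCA2 guides, against 1.37% of all genes. The edgeR quasi-likelihood test on recovered reads called 0 members between the POU2F3 and COLCA2 guides (0.341% of all genes). At an unadjusted p under 0.05 it gave 14 of the 57 (24.6%), against 13.6% of all genes. The largest differences from the COLCA2 mean were those of PLXNA4 (-0.97), SEMA4A (-0.93) and EPHA4 (0.81) on the log2 scale. EPHA2 (-0.55), EFNB2 (-0.53) and PLXNC1 (-0.49) were lower under the POU2F3 guide than under either COLCA2 guide, and SEMA6A (0.63) was higher than under either. Between the COLCA2 guides themselves, 3 members, EPHA7, ROBO2 and SEMA5B, were at least 2-fold apart (5.26%, against 2.22% of all genes).

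**Figure D4:**
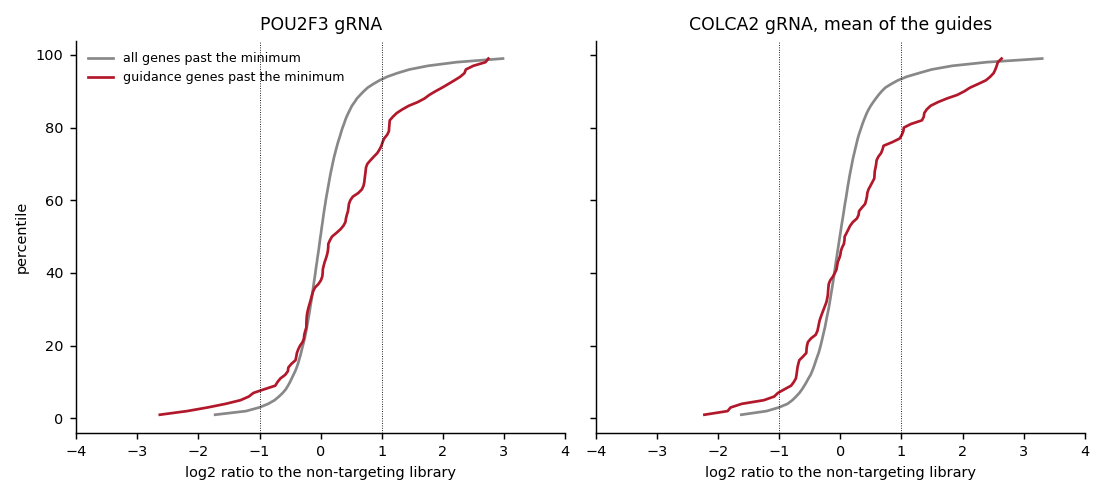
Percentiles of the log2 ratio to the control for the 57 members past the minimum (red) and all 14940 genes past it (grey), under the POU2F3 guide on the left and the mean of the COLCA2 guides on the right. The ratio is on the horizontal axis and the percentile on the vertical axis, and dotted lines mark 2-fold. At the low percentiles the member curve lies to the left of the curve of all genes, at lower ratios. From the median up to the percentile before the last it lies to the right, at higher ratios. Under the POU2F3 guide 24.6% of members were past 2-fold higher.

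Genes that work with these families were counted from lists drawn up with earlier results of these data known. Of all genes past the minimum, 3.05% were called lower and 6.73% higher for POU2F3, beside 2.02% and 5.79% for COLCA2. The lists hold few genes, and their counts were not tested against these shares. The netrin receptors and partners (12 genes, 9 past the minimum) gave 0 called lower and 2 called higher for POU2F3, against 0 called lower and 2 called higher for COLCA2. UNC5C, a repulsive netrin receptor, had 7.64 in the control, 74.6 and 94.1 under the COLCA2 guides and 101 under the POU2F3 guide, and NTNG1, a membrane-bound netrin-like ligand, had 34.4 in the control, 99.5 and 179.9 under the COLCA2 guides and 160.3 under the POU2F3 guide. Both were thus higher in every targeted library, though UNC5C, at 8 reads in the control, passed the minimum through the targeted libraries and so had to differ. The netrin receptor NEO1 stayed between -0.15 and 0.21 on the log2 scale. The 7 slit and ROBO partners gave 0 called lower and 1 called higher for POU2F3, against 0 called lower and 1 called higher for COLCA2. The gene called there was FLRT3, an adhesion protein that binds ROBO1 and UNC5 receptors, with log2 ratios of 1.01, 1.51 and 1.71 under COLCA2 guide 1, COLCA2 guide 2 and the POU2F3 guide.

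The 12 ephrin signalling genes gave 1 called lower and 1 called higher for POU2F3, against 0 called lower and 0 called higher for COLCA2. For this list and the 2 below, the shares of all genes were 3.05% lower and 6.73% higher for POU2F3. For COLCA2 they were 2.02% and 5.79%. Counts this small cannot be told from those shares. With the POU2F3 guide, VAV3 had a log2 ratio of 1.34 and CHN1, a Rac inactivator downstream of EPHA4, -1.14. Under the COLCA2 guides VAV3 had 0.63 and 0.81 and CHN1 -0.93 and -0.94, in the same directions and short of 2-fold. The 18 semaphorin and plexin signalling genes gave 1 called lower and 1 called higher for POU2F3, against 1 called lower and 2 called higher for COLCA2. DPYSL3, of the CRMP family that carries semaphorin signals to microtubules, had 27253 in the control, 6334 and 5502 under the COLCA2 guides and 5509 under the POU2F3 guide. L1CAM, an adhesion protein that forms a SEMA3A receptor complex with NRP1, had 76.4 in the control, 645 and 653 under the COLCA2 guides and 441 under the POU2F3 guide. RRAS, a small GTPase switched off by plexins, was called under both COLCA2 guides (mean log2 ratio 1.24 ± 0.0517, SD, n = 2) and had 0.40 under the POU2F3 guide. Of the 7 VEGF ligands and receptors that share neuropilins, 6 passed the minimum and gave 0 called lower and 1 called higher for POU2F3, against 0 called lower and 0 called higher for COLCA2. That gene was FLT1, a VEGFA receptor, with 52.5 in the control, 104 and 147 under the COLCA2 guides and 112 under the POU2F3 guide.

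POU2F3 itself had a normalized count of 14602 in the control, 3677 and 2351 under the COLCA2 guides and 1449 under the POU2F3 guide. The 7 tuft markers summed to 40672 in the control and between 9671 and 14154 in the targeted libraries. Of the 7, 6 were called lower for POU2F3 and 5 for COLCA2, with TRPM5 at 1 to 2 reads per library. These sums and both counts include POU2F3, the target of the POU2F3 guide, so they are not independent of the targeting. The 5 basal and squamous markers summed to 305 in the control and between 3135 and 5395 in the targeted ones, where all 5 were called higher under the POU2F3 guide and 4 under both COLCA2 guides. Both counts include KRT14, which had 4.77 in the control and passed the minimum through the targeted libraries. The 5 mesenchymal markers summed to 39887 and between 68862 and 102106, with 3 called higher under the POU2F3 guide and 2 under both COLCA2 guides. FN1 and PDGFRB were called in both comparisons and VIM under the POU2F3 guide only, while ZEB1 and COL1A1 were not called. VIM made up most of each sum, with 29301 in the control and 80266 under the POU2F3 guide. The sums of these lists differed from the control in the same libraries as the called guidance genes, which went in both directions. The part of these lists in the guidance results was not tested. For the marker counts, the shares of all genes past the minimum were 3.05% lower and 6.73% higher for POU2F3, and 2.02% and 5.79% for COLCA2. The endothelial markers summed to between 41.5 and 65.9 per library, with CDH5 at 0 in 2 libraries. VWF was called lower for POU2F3 and COLCA2, with 43.9 in the control, 17.6 and 21.2 under the COLCA2 guides and 15.9 under the POU2F3 guide. VWF passed the minimum through the control, where it was high, so its call is not independent of that minimum. The 3 leukocyte markers summed to 88.8 in the control and between 148 and 218 in the targeted ones. CD68, the one past the minimum, had 72.6 in the control, 209 and 199.9 under the COLCA2 guides and 139 under the POU2F3 guide and was called higher for COLCA2, and CD3E had 0 reads in every library. Of the 7 neuroendocrine markers 2 passed the minimum, and the list summed to 198 in the control and between 90.6 and 94.8 in the targeted ones. INSM1 was called lower for POU2F3 and COLCA2, with 118 in the control, 23.8 and 24.7 under the COLCA2 guides and 35.3 under the POU2F3 guide. SYP was not called, with 74.5 in the control, 60.1 and 48.2 under the COLCA2 guides and 52.0 under the POU2F3 guide. The counting's use of the strand is not given in the sources used here. The spans of 12 of the 20 called members overlap an annotated gene on the opposite strand, EFNB2, EPHA2, NRP2, NTN4 and PLXNC1 among them. Where exons overlap, reads of such a pair may not be separable. Overlap was taken over whole gene spans, introns included, and no such count is given for the other members.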

How the data were processed

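Poly(A) RNA from 4 libraries of NCI-H1048 was measured. Per the file headers, each deposited table gives 1 linear signal, a normalized count for every gene. Salmon, DESeq2 and the build hg38 are named in the submitters' processing notes, without versions or roles; the annotation is not given in the sources used here. Dividing by 1 step per library turned 100% of the authors' signal values into whole reads (tolerance 0.001), which may be rounded estimates.

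Rows of the same symbol were summed, which touched EPHB6 among the members. Genes with a mean of at least 20 were kept and log2 ratios were taken with a pseudocount of 1 (Python 3.11.15, pandas 2.3.3, scipy 1.17.1). As an alternative, edgeR 4.0.16 (R 4.3.3) fitted its quasi-likelihood test to the recovered reads with 3 groups, TMM and Benjamini-Hochberg adjustment over all genes at 0.05. Only the COLCA2 pair gives it a residual degree of freedom (1 in all), and the test compares libraries, not conditions. It called 1263 genes higher and 595 lower under the POU2F3 guide, and 1709 and 1122 for COLCA2. The scripts were tested on simulated data. For positions and lengths, 62 members matched GENCODE release 29 (GRCh38) on gene ID, and EPHA1 and SEMA7A on symbol. Promoters are from RefSeq (GRCh38.p14); EFNB3, EPHA10, NRP1, NTN1, NTN3, SEMA3A, SEMA6A and SEMA6B were not analysed there.

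The members and lists were chosen with earlier results of these data known. Members called at 2-fold under the POU2F3 guide or both COLCA2 guides get values in every library, and the others ranges. For some uncalled members values in every library are also given, a choice made after the values were seen. P-values are not given, since 2 of the groups hold 1 library each. Other alternatives were 2 pseudocounts, 2 scalings, 2 expression minimums, the highest row per symbol and each guide left out.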

Additional observations from a re-analysis of the deposited data

Results flagged for a closer look

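SLIT1, EFNA2 and EFNA3 lay above the control under the POU2F3 guide and below it under both COLCA2 guides, among members reaching a normalized count of 20 in some library. The edgeR test between the POU2F3 and COLCA2 guides called neither EFNA2 nor EFNA3, and SLIT1, under the minimum, was not tested. The log2 ratio under the POU2F3 guide minus the COLCA2 mean was 3.35 for SLIT1, which rests on few reads, 0.33 for EFNA2 and 0.23 for EFNA3, the last pair well within 2-fold. The 95% counting intervals of the fold under the POU2F3 guide included no change for each. They were 0.96 to 2.67 for SLIT1, 0.93 to 1.17 for EFNA2 and 0.99 to 1.19 for EFNA3.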

How the results depend on the processing

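No paired analysis was possible because the labels name no pairs of libraries across groups. Counts are called changed here past 1.5 times, and medians past the SD of 0.0018 between the guides' medians. Shares of all genes called were worked out only for the main setting and the edgeR test. Member counts under the other settings stand without one and cannot be set against the shares given above. With a minimum mean of 100, 9 members were at least 2-fold higher under the POU2F3 guide, since EPHA5, PLXNA4, ROBO2, SEMA3A and SEMA6D left, 1 differed between the COLCA2 guides, and the COLCA2 median was 0.064. Without a minimum, SLIT1 made 1 member 2-fold apart between the POU2F3 guide and both COLCA2 guides, 6 members differed between the guides, and the medians were 0.12 under the POU2F3 guide and 0.038 for COLCA2. TMM scaling gave a POU2F3 median of 0.20. Equal totals gave 0.15 and 0.0023, while the medians of all genes moved to -0.038 and -0.077, and left out EPHB1 under the POU2F3 guide and SEMA3B for COLCA2. A pseudocount of 10 gave a COLCA2 median of 0.064 and left out the same pair. SEMA7A passed 2-fold for POU2F3 with TMM scaling or a pseudocount of 0.1. Leaving out a guide gave 1 to 3 members apart from the POU2F3 guide and COLCA2 medians of 0.090 to 0.093. Without guide 1 these were EPHA7, PLXNA4 and SEMA4A, and without guide 2 it was ROBO2. The edgeR test called 10 members lower for COLCA2, adding EPHA3, EPHB3, SEMA3F, SEMA4C, SEMA4D and SEMA6C, and lost ROBO2 among the higher ones. For POU2F3 it lost EPHA7 among the lower calls and EPHA5, PLXNA4, ROBO2 and SEMA6D among the 14 higher ones, and gained EFNB1, EPHA4, EPHB2, EPHB6, NRP1 and PLXNB2. For the called genes' single ratios, alternatives chosen after seeing the data reversed none and moved 17 of 240 beyond the guides' SD. EPHA7, SEMA3A, PLXNA4 and ROBO2 are limited by few reads in at least one library.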
